A study of Mus musculus with 23 samples.

Results

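Vascular endothelial growth factor (VEGF) and angiopoietin signalling was followed in 10 genes during the formation of blood cells from hemogenic endothelium, with and without induction of the leukemic fusion protein RUNX1-ETO. The genes were the VEGF receptors Kdr, Flt1 and Flt4, the Tie receptors Tek and Tie1, the co-receptors Nrp1 and Nrp2, and the ligands Vegfa, Angpt1 and Angpt2. They were found through the RefSeq accession of each array probe, and the probe with the highest mean represented a gene. All 10 were among the 20145 genes with a probe and among the 15202 expressed genes that were tested, which reached a normalised log2 intensity of 6.5 on at least 1 array. The genes were set as a family and not by their measured values, although earlier results of these data were known when they were chosen. Tek and Kdr also encode surface markers by which the cells had been selected.

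RNA was hybridised in 1 colour to 23 arrays of a mouse gene expression design. The cells came from 1 mouse ES cell line, given in the labels as C57BL/6, that carries a doxycycline (Dox)-inducible, HA-tagged human RUNX1-ETO in all groups, so that uninduced cells hold the transgene too. Cells expressing Flk1, the product of Kdr, were selected from embryoid bodies and placed in blast culture, the medium of which contained VEGF. On day 2 the culture was sorted into HE (hemogenic endothelium, KIT+Tie2+CD41-), HE2 (KIT+Tie2+CD41+) and progenitors (KIT+Tie2-CD41+), either uninduced or after Dox at 0.1 µg per ml from day 1. Myeloid progenitors were grown from day 2 progenitors in expansion medium and harvested on day 3, uninduced or after 12 h of Dox. There were 3 arrays in each group of HE, HE2 and myeloid progenitors and 2 in each group of progenitors, labelled as biological replicates, so that P values measure the spread between these arrays. The third array of induced myeloid progenitors is a biological replicate by its title but a technical replicate by its source name, and it was kept as a replicate. Without it Kdr, Flt1 and Nrp2 kept their calls in myeloid progenitors and Flt4 and Tek lost theirs. A further array of uninduced progenitors, a technical replicate by its title but replicate 3 by its source name, was left out of the fit. Including it lost the call of Flt4 in HE and gained those of Angpt2 from HE2 to progenitors and from progenitors to myeloid progenitors without Dox. Cells treated with Dox but lacking the transgene were not analysed here.

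VEGFA binds VEGFR2 (Kdr), the main signalling receptor of blood vessel formation, which also marks the mesodermal precursors of blood and endothelium. VEGFR1 (Flt1) binds VEGFA tightly and limits its signal, VEGFR3 (Flt4) is the receptor for VEGFC and VEGFD, and the neuropilins present VEGF and class 3 semaphorins to their signalling receptors. Angiopoietin 1 activates Tie2 (Tek) and stabilises vessels, angiopoietin 2 acts on the same receptor as a context-dependent antagonist, and Tie1 modulates Tie2.

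The promoters of the 4 receptor genes with the largest rises in induced myeloid progenitors are shown because these genes moved together there and because RUNX1-ETO binds DNA through its RUNX domain. Each sequence runs 5′ to 3′ along the gene's own strand, from 250 bases before to 50 bases after the annotated start, in build GRCm38.p6 of RefSeq, whereas the array was annotated on another build. They lie at chr5:75978406-75978705 on the minus strand (Kdr), chr5:147725962-147726261 on the minus strand (Flt1), chr4:94739039-94739338 on the plus strand (Tek) and chr1:62703067-62703366 on the plus strand (Nrp2). Capitals mark any of the searched letters, read on both strands.
Kdr: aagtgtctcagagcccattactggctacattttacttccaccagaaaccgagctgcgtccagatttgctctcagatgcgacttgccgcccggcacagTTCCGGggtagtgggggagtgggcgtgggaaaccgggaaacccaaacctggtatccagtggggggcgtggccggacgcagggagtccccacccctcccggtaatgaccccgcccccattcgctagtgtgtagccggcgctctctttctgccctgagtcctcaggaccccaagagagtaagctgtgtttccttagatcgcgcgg
Flt1: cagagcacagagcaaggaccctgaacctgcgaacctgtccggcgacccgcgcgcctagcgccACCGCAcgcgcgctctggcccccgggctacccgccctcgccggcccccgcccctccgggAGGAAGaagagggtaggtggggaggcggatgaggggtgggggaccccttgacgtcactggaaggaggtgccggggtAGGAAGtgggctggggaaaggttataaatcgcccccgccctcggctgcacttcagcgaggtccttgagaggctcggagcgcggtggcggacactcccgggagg
Tek: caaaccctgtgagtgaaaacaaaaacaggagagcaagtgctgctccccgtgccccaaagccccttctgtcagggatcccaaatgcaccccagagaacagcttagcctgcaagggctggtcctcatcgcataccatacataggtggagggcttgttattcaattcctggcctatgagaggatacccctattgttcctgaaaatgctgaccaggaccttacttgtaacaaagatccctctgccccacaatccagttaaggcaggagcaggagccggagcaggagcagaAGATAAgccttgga
Nrp2: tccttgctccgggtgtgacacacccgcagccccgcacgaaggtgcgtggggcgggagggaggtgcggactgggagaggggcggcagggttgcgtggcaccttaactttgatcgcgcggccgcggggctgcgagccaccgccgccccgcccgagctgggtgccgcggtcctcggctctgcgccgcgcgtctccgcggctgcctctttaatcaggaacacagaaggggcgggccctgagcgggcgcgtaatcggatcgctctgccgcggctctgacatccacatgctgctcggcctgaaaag
The searched letters were TGTGGT and TGCGGT for RUNX, CCGGAA and AGGAAG for ETS (which share the core GGAA), and AGATAA for GATA factors. RefSeq held 9 promoters for 8 of the genes, with a pair for Vegfa, and none for Angpt1 or Angpt2. RUNX letters occurred in 1 of the 9, that of Flt1, whereas 22.4% of all 32851 promoters of this length held them. ETS letters occurred in 4 of the 9 (Kdr, Flt1, Tie1 and Nrp1), next to 45.2% of all promoters, and GATA letters in 2 (Tek and the upstream Vegfa promoter), next to 11.2%. The promoters of Flt4 and Nrp2 held none of these letters. In the Flt1 promoter the RUNX letters began at position -188 and the ETS letters at positions -129 and -53 from the start site.

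On each array 48.8 to 78.4% of spots were well above background, and no spot of the 10 genes was saturated. Quantile normalisation gives all arrays the same distribution, so that a shift of expression as a whole could not be seen. A probe for Runx1t1, the mouse gene that corresponds to ETO, served as a check of the labels. It read higher on every induced array than on any uninduced array of the same stage, with log2 changes of 1.24 (SE 0.33, adjusted P = 0.015) in HE, which was not called, and called changes of 2.08 (0.33), 3.96 (0.41) and 2.06 (0.33) at the later stages in order.

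The labelled cell types were compared with marker lists, given as the mean log2 intensity of a list on an array. The 8 endothelial genes had means of 13.1 to 14.1 in uninduced HE, 12.1 to 12.7 in HE2, 9.87 to 10.01 in progenitors and 10.1 to 10.9 in myeloid progenitors. With Dox the same list read 13.8 to 14.5, 14.1 to 14.2, 12.1 to 12.3 and 12.73 to 13.03. It thus moved with the receptor genes described below, with 2, 5, 6 and 7 of the 8 endothelial genes called higher with Dox at the 4 stages in order and 0 called lower. Single genes of other lists were called with Dox too, and the shares of all expressed genes called at each stage are given below. In HE2, 3 of 6 erythroid genes were called higher, while 2 of 2 expressed epithelial, 3 of 6 muscle, 2 of 5 mesenchymal, 2 of 7 myeloid, 1 of 7 blood and 1 of 4 megakaryocyte genes were called lower. In HE, 1 of 5 mesenchymal genes was higher and 2 were lower, 1 of 6 muscle genes was higher and 1 lower, 1 of 2 epithelial genes was lower and 1 of 6 erythroid genes was higher. In progenitors 2 of 6 erythroid genes and 1 of 6 muscle genes were higher, and 1 of 7 blood and 1 of 7 myeloid genes were lower. In myeloid progenitors 1 of 7 blood genes and 1 of 6 muscle genes were higher, and 3 of 4 megakaryocyte genes and 1 of 5 mesenchymal genes were lower. Itga2b, which encodes the sort marker CD41, fell by 3.21 on the log2 scale in HE, to a mean of 7.49 (SE 0.65, adjusted P = 0.0021). In HE2, gated as CD41+, its mean was 11.81 without and 9.35 with Dox, which was not called. The part of these lists in the results was not tested, and in these bulk samples fewer cells of a type and less RNA per cell cannot be told apart. Cells labelled as myeloid progenitors had the highest means of the 6 erythroid genes, at 15.2 to 15.6 uninduced, compared with 9.0 to 9.1 in HE.

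Arrays of HE and HE2 also differed within their groups along a shared axis. The first principal component of the deviations of all expressed genes from their group means held 35.7% of this variance, and the score of an array ran from -48.6 to 39.4 in HE and HE2 but from -1.24 to 1.75 in myeloid progenitors. The lowest arrays were replicate 2 of uninduced HE, induced HE and uninduced HE2 and replicate 3 of induced HE2. Tek, Tie1 and Nrp1 followed this axis, with correlations of 0.92, 0.94 and 0.90 over the 22 arrays, which share slides and labelling. Their residual SDs were 0.98, 0.81 and 0.80 on the log2 scale, higher than those of 97 to 99% of expressed genes, whose median SD was 0.31. Values of Tek, Tie1, Nrp1 and the called genes in HE and HE2 are therefore also given without these 4 arrays, an alternative chosen after seeing the data.

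**Figure D1:**
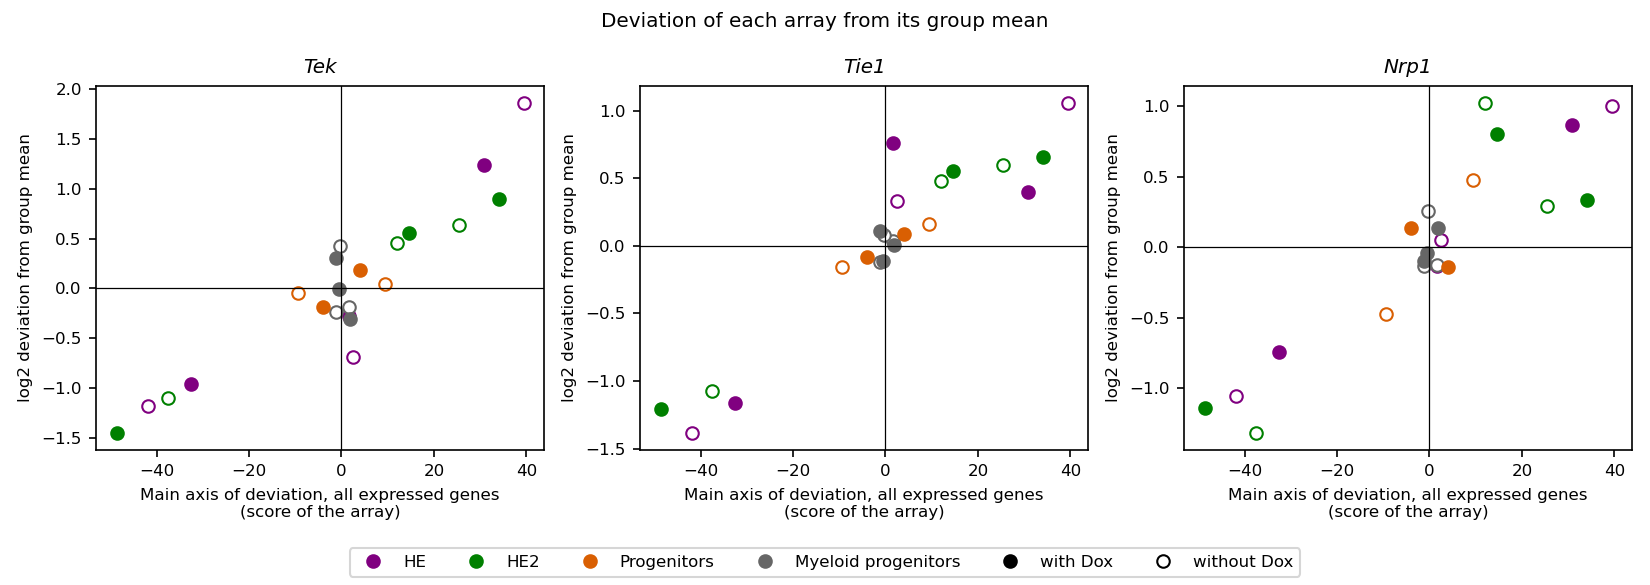
Deviation of each of 22 arrays from its group mean for Tek, Tie1 and Nrp1 (vertical axis, log2) against the array's score on the main axis of deviation over all expressed genes (horizontal axis, no unit), coloured by stage and filled for Dox. HE and HE2 arrays spread along the axis from -48.6 to 39.4 and the 3 genes deviate with it, while myeloid progenitor arrays sit close to 0.

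Kdr was called higher with Dox in myeloid progenitors, on 1 of its 2 probes. Uninduced HE arrays read 14.59, 14.28 and 15.36 (replicates 1 to 3, normalised log2 intensity) and induced HE arrays 15.60, 14.64 and 14.70, so that the groups overlapped. The change of 0.23 (SE 0.30, adjusted P = 0.72) did not pass the test, and its sign differed between slide 1 (1.16) and slide 2 (-0.69).

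In HE2, Kdr read 13.90, 13.61 and 14.30 without Dox and 14.81, 15.05 and 15.32 with it. All induced arrays lay above the uninduced ones, but the log2 change of 1.12 (SE 0.30, adjusted P = 0.014) missed the threshold for a call. A call here required at least a 2-fold change and a value of at most 0.001 in the test before adjustment, by limma. Uninduced progenitors read 12.67 and 12.84 and induced progenitors 13.63 and 14.55, a change of 1.33 (SE 0.37, adjusted P = 0.040) that was not called either. On the only slide with arrays of both progenitor groups the difference was 0.95, and on another slide the induced array differed from the technical replicate (13.77) by 0.78.

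In myeloid progenitors Kdr rose 4.71-fold. Uninduced arrays read 12.10, 12.38 and 12.13 and induced arrays 14.60, 14.38 and 14.33, which differed by 2.24 (SE 0.30, adjusted P = 4.5e-05). The groups were clearly apart, and the change stayed between 2.15 and 2.32 when any 1 array was left out. This value belongs to the probe present in 10 spots, and the other Kdr probe did not show it.

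The second Kdr probe, for the same transcript accession, read 12.23, 12.21 and 12.53 in uninduced and 12.72, 12.38 and 12.38 in induced myeloid progenitors, a log2 change of 0.17 (SE 0.37, adjusted P = 0.87). Its change with Dox was 0.06 in HE, 0.33 in HE2 and -0.77 in progenitors, where the direction opposed that of the used probe. The deviations of both probes from their group means were correlated at -0.66 over the 22 arrays. On the slide of the myeloid progenitors, the technical replicate of uninduced progenitors read 13.77 on the used and 12.82 on the second probe, whereas the uninduced progenitor arrays of other slides read 12.67 and 12.84 on the used and 13.45 and 13.64 on the second. With the main settings neither probe was called with Dox in HE, HE2 or progenitors, and the rise in myeloid progenitors belongs to the used probe alone. With the scan day as a block the used probe was called in HE2 (1.12, SE 0.28, adjusted P = 0.0095 by limma).

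**Figure D2:**
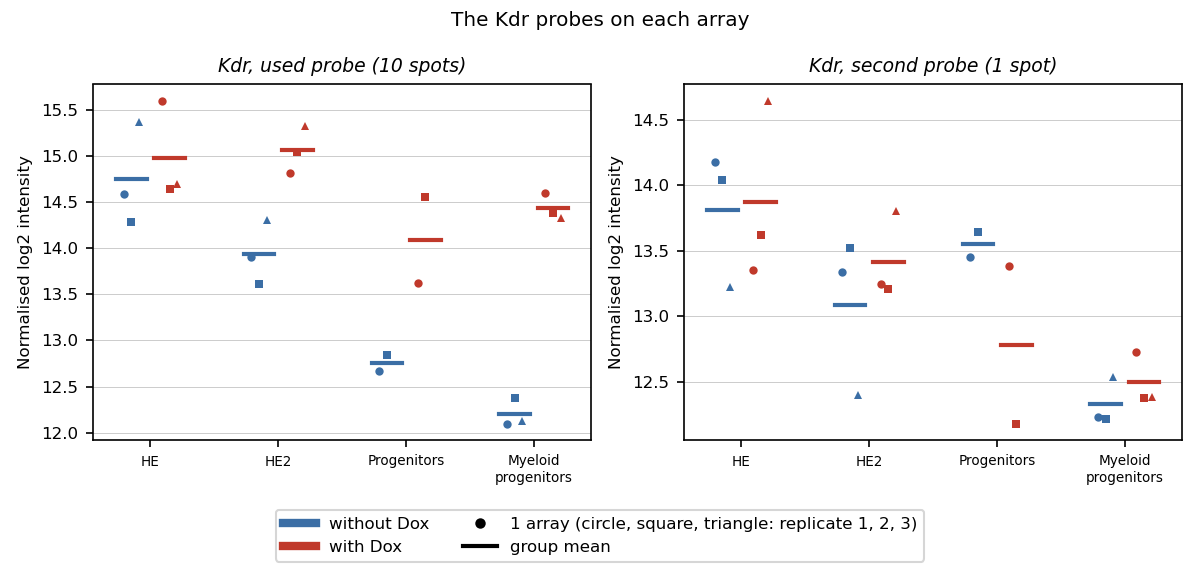
Normalised log2 intensity of the used Kdr probe (left) and the second Kdr probe (right) on each array, by stage, without Dox (blue) and with Dox (red), with bars at group means. In myeloid progenitors the used probe separates the groups by 2.24, whereas the second probe differs by 0.17.

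Flt1, the VEGF receptor that limits the VEGFA signal, rose with Dox in HE2, progenitors and myeloid progenitors. In HE, uninduced arrays read 14.42, 14.33 and 14.43 and induced arrays 14.84, 14.15 and 13.67, so that the groups overlapped at a difference of -0.17 (SE 0.26, adjusted P = 0.76), which was 0.47 on slide 1 and -0.52 on slide 2. HE2 arrays read 13.74, 13.51 and 12.98 without and 14.62, 14.77 and 14.82 with Dox, a rise of 1.33 (SE 0.26, adjusted P = 0.0014). Every induced HE2 array was thus above every uninduced one.

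Progenitors had Flt1 levels of 12.42 and 11.85 without and 13.64 and 13.77 with Dox, a rise of 1.58 (SE 0.32, adjusted P = 0.0049). With the slide as a block this rise was 1.32 and no longer called, and the call was also lost without replicate 2 of uninduced (1.29) or of induced (1.51) progenitors. Myeloid progenitors read 11.96, 12.19 and 11.96 without and 14.07, 13.54 and 13.44 with Dox, a rise of 1.64 (SE 0.26, adjusted P = 2.0e-04) that kept its call when any 1 array was left out (1.45 to 1.77). Flt1 and Flt4 were each called at 3 of the 4 stages, Flt1 at all but HE and Flt4 at all but progenitors.

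The response of Flt1 to Dox differed between HE and HE2 by 1.50 (SE 0.36, adjusted P = 0.057) and between HE and myeloid progenitors by 1.82 (SE 0.36, adjusted P = 0.0040). The first difference was called but was lost when any 1 of 10 of the 12 arrays was left out (1.22 to 1.81), whereas the second was kept in all such fits.

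Flt4, the VEGFC receptor, rose with Dox in HE, HE2 and myeloid progenitors. HE arrays read 9.82, 9.73 and 8.90 without and 10.33, 10.95 and 10.85 with Dox, a rise of 1.23 (SE 0.31, adjusted P = 0.010). HE2 arrays read 8.90, 9.23 and 7.86 without and 9.82, 9.87 and 10.17 with Dox, a rise of 1.29 (SE 0.31, adjusted P = 0.0076). In both, induced and uninduced arrays did not overlap. On slide 1 the differences of Flt4 were 0.56 in HE and 0.75 in HE2, below 2-fold, and on slide 2 they were 2.01 and 2.16.

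Myeloid progenitors read 7.36, 6.55 and 6.89 without and 8.12, 8.50 and 8.23 with Dox, a rise of 1.35 (SE 0.31, adjusted P = 0.0065). Progenitors read 7.93 and 7.62 without and 8.05 and 8.06 with Dox, and this difference of 0.28 (SE 0.38) did not pass. On slide 1 it was 0.13, and on slide 3 the induced array exceeded the technical replicate (6.93) by 1.13. The calls for Flt4 depended on single arrays. In HE the call was lost without replicate 2 or 3 of either group (0.94 to 1.42 over all such fits), in HE2 without any array other than uninduced replicate 2 (0.89 to 1.57), and in myeloid progenitors without replicate 2 or 3 of either group (1.16 to 1.56). The changes were 1.23 in HE and 1.46 in HE2 without the 4 arrays lowest on the axis, not called.

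The co-receptor Nrp2 fell from HE2 to progenitors and from progenitors to myeloid progenitors, and rose with Dox in myeloid progenitors. Uninduced levels were 15.04, 15.44 and 15.51 in HE, 14.42, 14.62 and 14.15 in HE2, 12.71 and 12.57 in progenitors and 10.88, 11.77 and 11.18 in myeloid progenitors. These groups followed each other without overlap, with log2 changes of -0.93 (SE 0.23, adjusted P = 0.012, not called), -1.76 (SE 0.26, adjusted P = 1.4e-04) and -1.36 (SE 0.26, adjusted P = 5.9e-04). The last of these crosses slides, and with the slide as a block it was -0.66 and not called. It was also lost without replicate 1 of uninduced progenitors, at -1.17 to -1.61 over such fits. The second Nrp2 probe, with means of 9.09 in progenitors and 8.22 in myeloid progenitors, did not call this fall either.

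Induced Nrp2 levels were 15.54, 15.62 and 15.65 in HE, 14.74, 14.69 and 15.17 in HE2, 13.40 and 12.70 in progenitors and 13.32, 13.22 and 13.01 in myeloid progenitors. Only the last differed from its uninduced group past the threshold, by 1.90 (SE 0.23, adjusted P = 1.3e-05) or 3.74-fold, and the second Nrp2 probe also separated these groups, at 7.70, 8.72 and 8.23 without and 10.10, 10.07 and 9.92 with Dox. The changes in HE, HE2 and progenitors were 0.28, 0.47 and 0.41, none of them called. The response in myeloid progenitors exceeded that in HE by 1.63 (SE 0.32, adjusted P = 0.0039) and that in progenitors by 1.50 (SE 0.36, adjusted P = 0.050). The second probe called neither difference, and with the slide as a block the excess over progenitors was 1.14 and not called. The excess over progenitors also lost its call in 7 of 10 fits without 1 array (1.15 to 1.84, adjusted P up to 0.29).

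Nrp1, which binds VEGFA and semaphorins, spread widely between replicates. Uninduced HE arrays read 9.45, 8.35 and 10.40 and uninduced HE2 arrays 8.91, 6.56 and 8.18, and induced arrays spanned 8.45 to 10.06 in HE and 7.72 to 9.66 in HE2. In progenitors Nrp1 read 7.00 and 6.05 without and 7.35 and 7.08 with Dox, and in myeloid progenitors 7.24 to 7.63 without and 7.69 to 7.92 with Dox. Its changes with Dox were -0.21, 0.98, 0.69 and 0.42 at the 4 stages in order, with SEs of 0.59 to 0.72, and none passed. When 1 array was left out they ran from -0.74 to 0.29 in HE, from 0.32 to 1.55 in HE2 and from 0.21 to 1.16 in progenitors. The HE difference of Nrp1 was 1.16 on slide 1 and -1.65 on slide 2. Without the 4 arrays lowest on the axis the changes were -0.37 in HE and 0.89 in HE2, not called.

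**Figure D3:**
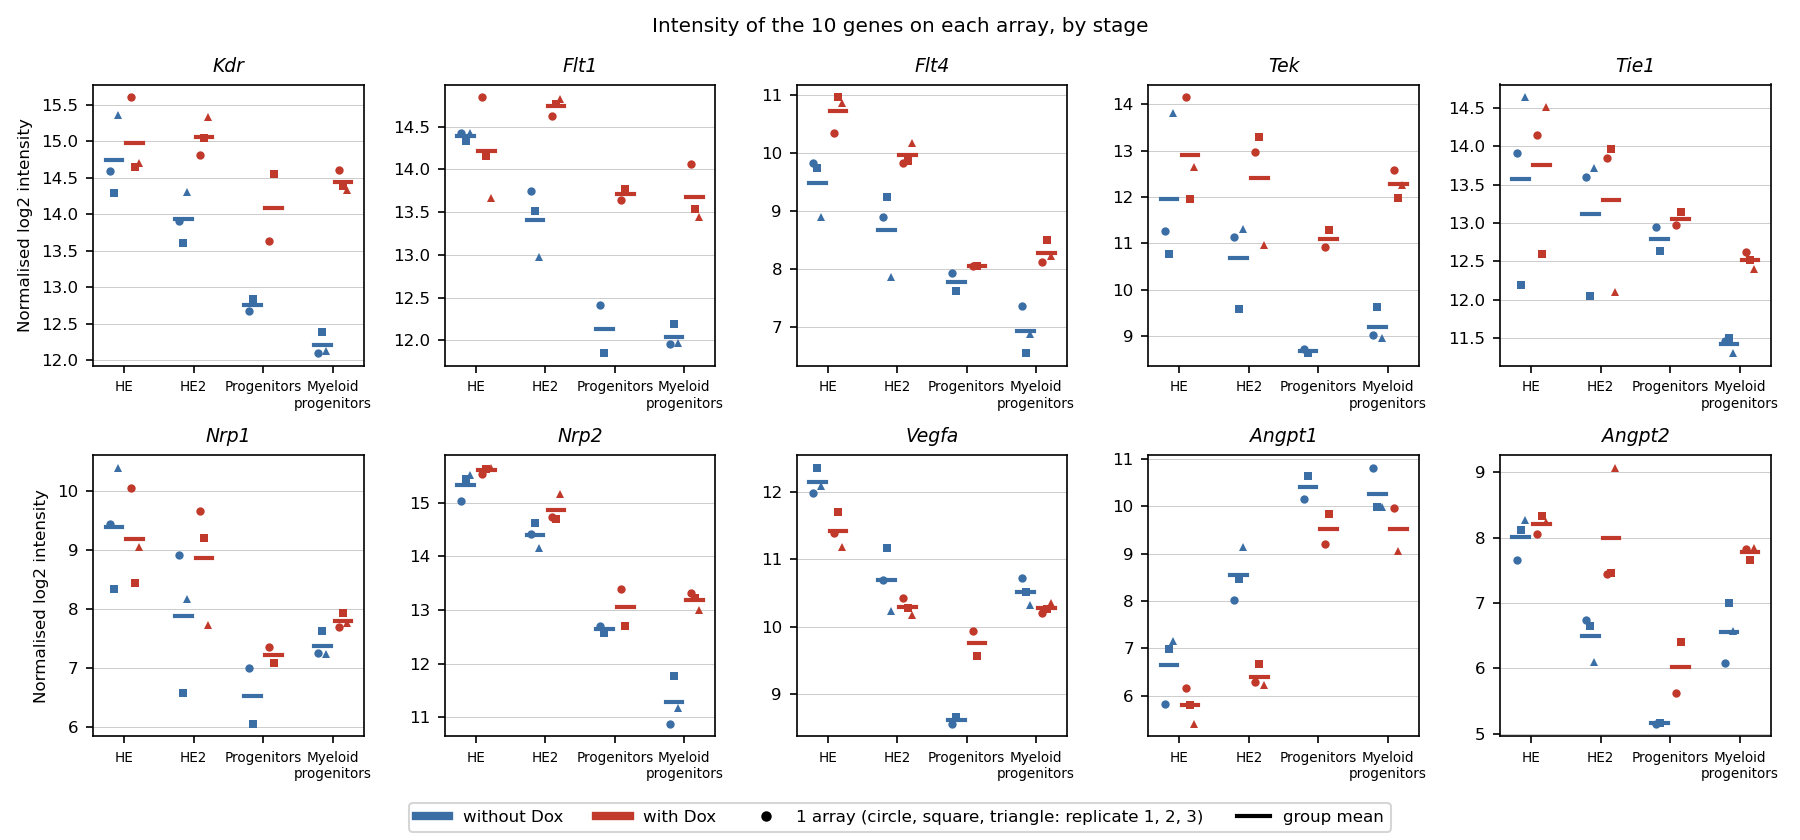
Normalised log2 intensity of the 10 genes on each array (points, with the shape giving the replicate number) at the 4 stages, without Dox (blue) and with Dox (red), with bars at group means. Vertical axes differ between genes, and in myeloid progenitors the groups overlap for Vegfa alone, with 8 genes higher and Angpt1 lower on every induced array measured, next to 23.9% of all expressed genes that separate upwards and 22.7% downwards.

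Tek encodes Tie2, the marker by which HE and HE2 were gated as positive and progenitors as negative, so that its level was part of how these stages were chosen. No gate on Tie2 is given for the harvest of myeloid progenitors. Uninduced HE arrays read 11.26, 10.77 and 13.81 and induced HE arrays 14.15, 11.96 and 12.64, which overlapped at a difference of 0.97 (SE 0.72, adjusted P = 0.45). On slide 1 the induced array exceeded the mean of the uninduced arrays by 3.13, and on slide 2 the induced mean was lower than the uninduced array, at a difference of -1.52. The sign of the HE difference thus changed with the slide, and its size with single arrays, from 0.35 without induced replicate 1 to 1.90 without uninduced replicate 3. Without the 4 arrays lowest on the axis it was 0.85 and not called.

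In HE2 Tek read 11.13, 9.58 and 11.31 without and 12.97, 13.30 and 10.95 with Dox, a difference of 1.73 (SE 0.72, adjusted P = 0.11), and the third induced array fell within the uninduced range. Without the 4 arrays lowest on the axis it was 1.91 (SE 0.62, adjusted P = 0.067). Progenitors, gated as Tie2-, read 8.71 and 8.63 without and 10.91 and 11.29 with Dox, the induced arrays lying within the range of uninduced HE2. That difference of 2.43 (SE 0.88, adjusted P = 0.12) was not called although the groups were apart, and it was called in a fit on these 2 groups alone (SE 0.26, adjusted P = 0.036).

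In myeloid progenitors Tek showed the largest change with Dox among the 10 genes at the 4 stages. It read 9.01, 9.63 and 8.96 without and 12.58, 11.97 and 12.27 with Dox, a rise of 3.07 (SE 0.72, adjusted P = 0.0068) or 8.42-fold. All 6 arrays lay on 1 slide, and within these groups the arrays differed by at most 0.67. The call came from a fit in which all groups shared a spread estimate, and it was lost in 5 of the 6 fits without 1 array (all but uninduced replicate 2), at 2.92 to 3.29 with adjusted P up to 0.033. It was also lost when myeloid progenitor arrays were normalised apart from the others (2.86).

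Tie1, the second Tie receptor, showed no called change with Dox. In uninduced HE it read 13.91, 12.19 and 14.64 and in induced HE 14.15, 12.59 and 14.51, and in HE2 13.60, 12.04 and 13.72 without and 13.85, 13.96 and 12.10 with Dox. The differences were 0.17 and 0.18 (SE 0.60). They ran from -0.52 to 0.75 in HE and from -0.36 to 0.79 in HE2 when 1 array was left out, and their signs changed with the slide (1.102 and -1.087 in HE, 1.03 and -0.69 in HE2, on slides 1 and 2). They were 0.06 and 0.25, not called, without the 4 arrays lowest on the axis. In progenitors the difference was 0.27 (SE 0.73). Myeloid progenitors read 11.46, 11.50 and 11.31 without and 12.63, 12.52 and 12.40 with Dox, which were apart by 1.09 (SE 0.60, adjusted P = 0.28). A fit on these 2 groups alone, without the wide spread of HE and HE2, gave the same 1.09 with an SE of 0.11 and an adjusted P of 8.7e-04.

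Vegfa, the ligand of Kdr and Flt1, fell from HE to progenitors without Dox and was higher again in myeloid progenitors. Uninduced arrays read 11.99, 12.36 and 12.08 in HE, 10.23 to 11.16 in HE2, 8.56 and 8.65 in progenitors and 10.72, 10.51 and 10.31 in myeloid progenitors. The log2 changes from stage to stage were -1.45 (SE 0.21, adjusted P = 1.9e-04), -2.09 (SE 0.23, adjusted P = 9.6e-06) and 1.91 (SE 0.23, adjusted P = 7.7e-06). Each of the 3 kept its call when any 1 array was left out, although the last also compares slides.

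Induced arrays read 11.39, 11.69 and 11.18 in HE, 10.43, 10.28 and 10.17 in HE2, 9.94 and 9.56 in progenitors and 10.21, 10.25 and 10.35 in myeloid progenitors. In HE every induced array was below every uninduced one, but the change of -0.72 (SE 0.21, adjusted P = 0.023) was smaller than 2-fold, while the second Vegfa probe gave -1.31 (SE 0.31, adjusted P = 0.0072) and was called. In progenitors Vegfa rose by 1.15 (SE 0.25, adjusted P = 0.0099), which was not called on the second probe (1.20, adjusted P = 0.080).

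The rise of Vegfa in progenitors was lost without replicate 1 or 2 of uninduced or replicate 1 of induced progenitors (0.96 to 1.33). On slide 1 the difference was 1.38, and on slide 3 the induced array exceeded the technical replicate by 1.45. The response in progenitors exceeded that in HE2 by 1.55 (SE 0.33, adjusted P = 0.064) and the response in myeloid progenitors was below that in progenitors, at -1.39 (SE 0.33, adjusted P = 0.043). The first difference was lost without replicate 1 of either progenitor group (1.32 to 1.78) and the second in 7 of 10 fits without 1 array (-1.58 to -1.21). Neither was called on the second Vegfa probe or with 75th percentile scaling.

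Angpt1, the activating ligand of Tie2, rose as cells left the endothelial stage and fell with Dox in HE2. Uninduced arrays read 5.83, 6.98 and 7.17 in HE, 8.02, 8.46 and 9.13 in HE2, 10.16 and 10.63 in progenitors and 10.81, 9.99 and 9.98 in myeloid progenitors. The rise from HE to HE2 was 1.88 (SE 0.38, adjusted P = 0.0033) and that from HE2 to progenitors 1.86 (SE 0.42, adjusted P = 0.0084). The first was lost without replicate 1 of HE or 3 of HE2 (1.46 to 2.14), and the second without replicate 1 or 2 of either group (1.60 to 2.15).

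With Dox, Angpt1 in HE2 read 6.30, 6.67 and 6.23, all below the uninduced arrays, at a change of -2.14 (SE 0.38, adjusted P = 7.3e-04) or 4.41-fold lower. This kept its call when any 1 array was left out (-2.40 to -1.85). Without the 4 arrays lowest on the axis it was -2.09 and no longer called.

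In HE the induced arrays read 6.18, 5.81 and 5.42, overlapping the uninduced ones at -0.86 (SE 0.38, adjusted P = 0.15). The lowest of these was not well above background, which 2 of the 3 arrays were, so that this change rests in part on a bound. Progenitors read 9.20 and 9.84 with Dox, at a change of -0.87 (SE 0.46, adjusted P = 0.30). Induced myeloid progenitors read 9.97 and 9.06 on the arrays with a usable spot, since replicate 2 was dropped as an outlier spot, at -0.74 (SE 0.42, adjusted P = 0.30). From HE2 to progenitors with Dox, Angpt1 rose by 3.12 (SE 0.42, adjusted P = 8.3e-05), or 8.71-fold.

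Angpt2, the antagonist of the same receptor, fell from HE to HE2 and rose with Dox in HE2. HE arrays read 7.65, 8.12 and 8.27 and HE2 arrays 6.74, 6.65 and 6.10 without Dox, a change of -1.52 (SE 0.35, adjusted P = 0.0084). This call was lost without replicate 2 or 3 of either group (-1.70 to -1.32). It was also lost with the replicate number as a block within these 2 groups (adjusted P = 0.023), whereas the changes of Vegfa and Angpt1 kept theirs.

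With Dox, Angpt2 read 8.06, 8.33 and 8.24 in HE, which overlapped the uninduced group, and 7.44, 7.45 and 9.07 in HE2. The rise in HE2 was 1.49 (SE 0.35, adjusted P = 0.0062), and it fell to 0.95 without replicate 3 of induced HE2, which stood above the others. It was not called then, nor without replicate 2 or 3 of uninduced HE2, with the slide as a block (1.43) or in a fit on these 2 groups alone. Within slide 1 the difference was 0.75 and within slide 2 it was 2.16.

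In uninduced progenitors Angpt2 was not well above background on either array (5.16 and 5.17), so that its level there is a bound. Induced progenitors, at 5.63 and 6.41, were at least 1.81-fold higher (adjusted P = 0.28), uninduced HE2 at least 2.52-fold (adjusted P = 0.043) and uninduced myeloid progenitors at least 2.62-fold (adjusted P = 0.011), none of them called. The last 2 were called at an adjusted P of 0.05, with the technical replicate included and with 75th percentile scaling. Myeloid progenitors read 6.08, 7.01 and 6.58 without and 7.83, 7.66 and 7.84 with Dox, which did not overlap at 1.22 (SE 0.35, adjusted P = 0.026), short of the threshold, but called in a fit on these 2 groups alone (SE 0.22, adjusted P = 0.0080).

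**Figure D4:**
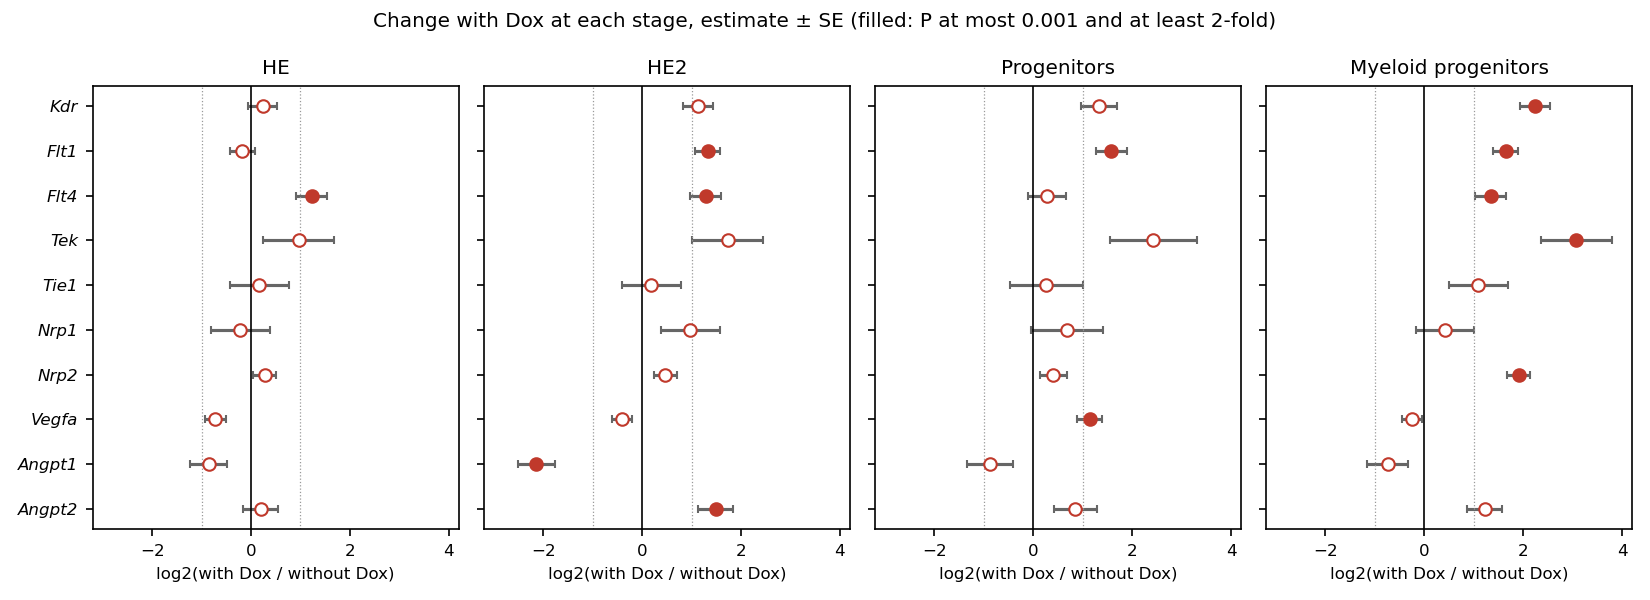
Log2 change with Dox of the 10 genes at the 4 stages, with bars for the SE of the fit, filled points for called changes and dotted lines at a 2-fold change in either direction. From HE to myeloid progenitors there are 1, 4, 2 and 5 called points, and Angpt1 in HE2 (-2.14) is the only called decrease.

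Read over the 10 genes, the Dox comparisons called Flt4 in HE, and Flt1, Flt4 and Angpt2 higher with Angpt1 lower in HE2. They called Flt1 and Vegfa higher in progenitors and Kdr, Flt1, Flt4, Tek and Nrp2 higher in myeloid progenitors. Next to the 1 of 10 higher in HE, 4.70% of all expressed genes were called higher, and next to the 0 lower, 2.39%. In HE2 the counts were 3 higher and 1 lower, next to 5.17% and 2.05% of all genes. In progenitors they were 2 and 0, next to 3.03% and 0.704%, and in myeloid progenitors 5 and 0, next to 5.13% and 1.18%. At an unadjusted P of 0.05 by limma, 1, 5, 4 and 6 of the 10 genes were higher at the 4 stages in order, next to 14.4%, 16.2%, 10.4% and 15.1% of all genes. At the same limit by limma 2, 1, 0 and 0 were lower, next to 12.4%, 13.2%, 9.77% and 10.4%.

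The median log2 change of the 10 genes with Dox was 0.18, 1.05, 0.77 and 1.28 at the 4 stages in order, next to medians of -0.01, -0.03, -0.04 and -0.02 over all expressed genes. Without the 4 arrays lowest on the axis, 0 of the 10 genes were called with Dox in HE and 0 in HE2 by limma, next to 4.11% of all genes higher and 2.25% lower in HE and 3.57% and 1.32% in HE2. In HE2 the values were then 1.33 for Flt1, 1.46 for Flt4, 1.03 for Angpt2 and -2.09 for Angpt1. Calls were also lost for Angpt1 from HE to HE2 (2.08) and from HE2 to progenitors (1.82) and for Flt1 from HE2 to progenitors (-1.23), all without Dox, and for Vegfa from HE to HE2 with Dox (-0.93). The response of Flt1 in myeloid progenitors then exceeded that in HE by 1.82, and the response in HE2 exceeded that in HE by 1.51, neither of them called. The same fit gained Nrp1, which fell from HE2 to progenitors by 2.02 (SE 0.40, adjusted P = 0.0057) without Dox and by 2.22 (SE 0.40, adjusted P = 0.0029) with Dox.

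Fits on only the groups compared, which leave the estimate of spread to fewer arrays, kept 21 of the 34 calls over all comparisons, lost 13 and gained 4. With Dox they lost Flt4 in HE, Flt4 and Angpt2 in HE2, and Flt1 and Vegfa in progenitors. Between stages they lost Angpt1 from HE to HE2, Angpt1 and Flt1 from HE2 to progenitors and Nrp2 from progenitors to myeloid progenitors without Dox, and Angpt2 from HE2 to progenitors with Dox. They also lost the differences of response of Flt1 between HE and HE2, Vegfa between HE2 and progenitors and Nrp2 between progenitors and myeloid progenitors. The gains were Tek in progenitors and Tie1 and Angpt2 in myeloid progenitors with Dox, and Tie1 from progenitors to myeloid progenitors without Dox (-1.37, SE 0.15, adjusted P = 0.0023).

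Along the stages without Dox, Angpt1 rose and Vegfa and Angpt2 fell from HE to HE2, that is 1 higher and 2 lower next to 2.39% and 2.67% of all genes. Kdr, Flt1, Flt4, Tek, Tie1, Nrp1 and Nrp2 were not called in this step. Their log2 changes ran from -1.52 (Nrp1, SE 0.59) to -0.46 (Tie1, SE 0.60). With the replicate number as a block within these groups Angpt2 lost its call and no gene gained one. From HE2 to progenitors Angpt1 rose and Vegfa, Nrp2 and Flt1 fell, next to 1.78% higher and 3.62% lower. Flt1 fell there by 1.28 on the log2 scale, a call lost without replicate 1 or 2 of HE2 or 2 of progenitors (-1.56 to -0.995). From progenitors to myeloid progenitors Vegfa rose and Nrp2 fell, next to 7.00% and 6.93%. In this last step no slide held both an uninduced progenitor array of the fit and a myeloid progenitor array, so it also compares slides. With the slide as a block, Vegfa kept its call and Nrp2 did not. On slide 3 the technical replicate left out of the fit read 8.12 for Vegfa and 12.46 for Nrp2. Uninduced myeloid progenitors, on the same slide, read 10.31 to 10.72 for Vegfa and 10.88 to 11.77 for Nrp2.

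With Dox, Vegfa alone changed from HE to HE2, by -1.13 (SE 0.21, adjusted P = 0.0025), so that 0 were higher and 1 lower next to 1.62% and 1.47%. That call was lost without replicate 2 of induced HE (-0.99), on the second Vegfa probe (-0.69) and on the mean of both probes (-0.91). From HE2 to progenitors Angpt1 rose and Angpt2, Flt4 and Nrp2 fell by 1.97, 1.90 and 1.81 on the log2 scale, that is 1 higher and 3 lower next to 2.02% and 5.34%, and Angpt2 lost its call without replicate 1 of induced progenitors (-2.36 to -1.43 over the fits without 1 array). From progenitors to myeloid progenitors Angpt2 alone changed, by 1.76 (SE 0.39, adjusted P = 0.0046), so that 1 was higher and 0 lower next to 4.86% and 2.51%. That call was lost with the slide as a block (1.37), without replicate 1 of induced progenitors and without replicate 1 or 3 of induced myeloid progenitors (1.37 to 2.15). At an unadjusted P of 0.05 by limma, 0 genes were higher and 3 lower from HE to HE2, next to 10.1% and 8.22% of all genes. From progenitors to myeloid progenitors 2 were higher and 0 lower by this limit, next to 14.8% and 16.2%. For the other steps between stages the share of all genes at this limit was not computed, so no counts at it are given for them. These comparisons share arrays with each other and with the Dox comparisons.

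The Dox response itself differed between stages for 4 genes, as given above. Myeloid progenitors had 12 h of Dox in expansion medium, whereas the other stages had Dox from day 1 in blast culture. In differences that involve myeloid progenitors, stage, time with Dox and medium therefore cannot be told apart. Between HE and HE2 it differed for Flt1, or 1 of 10 next to 1.34% of all genes, and between HE2 and progenitors for Vegfa, next to 0.645%. Between progenitors and myeloid progenitors it differed for Nrp2 and Vegfa, 2 of 10 next to 1.50%. Between HE and myeloid progenitors it differed for Kdr by 2.00 (SE 0.42, adjusted P = 0.0061) and for Flt1 and Nrp2, 3 of 10 next to 4.72%, and these 3 kept their calls without any 1 of the 12 arrays. On the second Kdr probe that difference was 0.11 and not called. For Tek the difference of 2.11 (SE 1.01, adjusted P = 0.32) did not pass.

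The genes most like 9 of the 10 were found by Pearson's r of log2 intensity over the 22 arrays, which describes shared differences between stages as well as between replicates. Kdr was closest to She (0.967), Gimap8 (0.956) and Sptbn1 (0.955), and among the 10 genes to Flt1 (0.926). Flt1 was closest to Sgk1, Mmrn2 and Limch1 (0.949 to 0.957) and Nrp2 to Prag1, Creb3l2 and Fermt2 (0.984 to 0.991). Tek was closest to Il6st, Afap1l1 and Npr1 (0.918 to 0.934), Tie1 to Ift172, Sorbs3 and Smurf2, and Nrp1 to Lama4, Anxa3 and Il6st. Among the ligands, Vegfa was closest to Rnf165, P4ha2 and Prss12, Angpt2 to Agpat4, Cubn and Cltc, and Angpt1 to Ptprj, Nfam1 and Tnfaip8l2. Ptprj, a receptor tyrosine phosphatase, is also in a pathway list below.

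Other genes of the pathway were read from 6 lists, whose counts stand next to the shares of all expressed genes called with Dox at the 4 stages in order, 4.70%, 5.17%, 3.03% and 5.13% higher and 2.39%, 2.05%, 0.704% and 1.18% lower. The counts are small and describe single genes rather than a list as a whole. Of 4 expressed ligands outside the 10 genes, Vegfc, the ligand of Flt4, was the only one called with Dox. It fell in HE by 1.08 (SE 0.25, adjusted P = 0.0049) and rose in progenitors by 1.51 (SE 0.30, adjusted P = 0.0048) and in myeloid progenitors by 1.94 (SE 0.25, adjusted P = 2.4e-05). Angpt4 was below the expression filter.

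Of 18 regulators of these receptors at the membrane, 1, 1, 1 and 4 were called higher with Dox at the 4 stages in order and 2, 4, 1 and 1 lower. Ptprb, the endothelial phosphatase that acts on Tie2 (VE-PTP), rose at every stage, by 1.36, 2.59, 6.21 and 5.15 on the log2 scale in the order of the stages. Eng (2.94), Hspg2 (2.20) and Cdh5 (1.69), which encodes VE-cadherin, rose with it in myeloid progenitors. Cd44 fell by 1.80 in HE and fell by 1.23 in progenitors, and Dok2, an adaptor bound by Tie2, fell by 1.72 in HE and by 2.08 in HE2. The median change of the list lay between -0.13 and 0.03, next to -0.04 to -0.01 over all genes.

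Of 12 expressed neuropilin ligands and plexins, 1, 2, 1 and 3 were called higher and 1, 1, 0 and 0 lower, with medians of 0.09, -0.22, -0.02 and 0.67. Sema3f, a ligand of Nrp2, rose after HE, by 2.09, 4.07 and 3.22 at the successive stages. Sema3c rose by 2.26 in HE2, Sema3e by 1.95 and the semaphorin receptor Plxnd1 by 1.17 in myeloid progenitors, and Plxna4 fell by 1.12 in HE and fell by 1.41 in HE2.

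Of 36 genes of signal transduction, 3, 4, 3 and 3 were called higher and 0, 1, 1 and 2 lower, with medians between -0.04 and 0.06. Hspb1, a heat shock protein on the p38 branch, rose by 2.31 in HE, 1.72 in HE2 and 3.22 in myeloid progenitors. Nos3, the endothelial nitric oxide synthase, rose by 2.12 in progenitors and 2.20 in myeloid progenitors, and Rasip1, a vascular Ras-interacting protein, by 1.24, 1.25 and 3.05 in HE2, progenitors and myeloid progenitors. Prkcb rose by 2.92 in HE and 2.46 in HE2 and changed by -1.23 in myeloid progenitors.

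Of 16 expressed genes that VEGF is known to induce in endothelium, 0, 0, 0 and 3 were called higher and 1, 0, 0 and 0 lower. In myeloid progenitors Plat (2.63), Apln (1.71) and Plaur (1.24) rose, and in HE the change of Apln was -1.94. Of 18 transcription factors known to act on these receptor genes, 2, 5, 4 and 9 were called higher and 1, 0, 0 and 0 lower, with medians of 0.39, 0.61, 0.59 and 0.98. Epas1, a hypoxia-inducible factor, rose by 1.62, 2.49, 2.23 and 1.73 at the 4 stages in order, and Sox17, an endothelial SOX factor, by 1.42, 2.18 and 2.75 at the stages after HE. Foxc1 (2.98), Ets1 (2.68) and Erg (2.08) rose in myeloid progenitors, and Etv2, an early endothelial ETS factor, fell by 1.38 in HE.

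**Figure D5:**
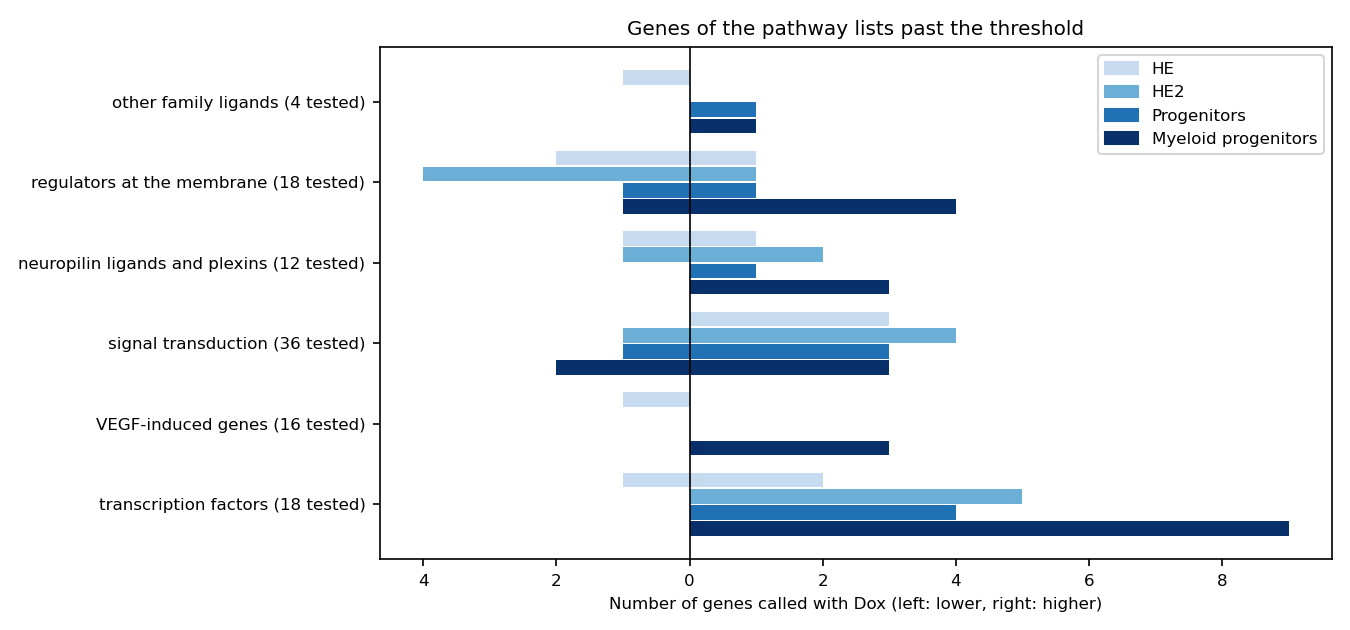
Number of genes called higher (bars to the right) or lower (bars to the left) with Dox in each pathway list at the 4 stages. Transcription factors of these receptor genes have the most calls, with 9 of 18 higher in myeloid progenitors.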

How the data were processed

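Spot intensities, deposited as the authors' scanner output (Agilent Feature Extraction, version 10.7.3.1 in the file headers and 10.7.1.1 in the submitters' processing notes), were used as median signal and median background. The log2 values that the authors deposited were an alternative. Intensities were background corrected (normexp, offset 16), 3671 control spots and outlier spots were dropped, and 23 arrays were quantile normalised in limma 3.58.1 (R 4.3.3). Spots were averaged over 55681 probes, 26582 of which took a symbol from RefSeq (GRCm38.p6). Genes at a log2 intensity of 6.5 or more on at least 1 array were tested with lmFit and eBayes on 22 arrays (14 residual degrees of freedom). Calls required at least a 2-fold change and an unadjusted value of at most 0.001 in this test, and the adjustment was Benjamini-Hochberg over 15202 genes. The number of arrays limits the precision. Same-numbered uninduced HE and HE2 arrays deviated together (correlations of 0.39, 0.79 and 0.61 over genes), and no other groups did so for all 3 numbers. Progenitor groups, with 2 arrays each, could not meet this rule. The genes, lists and alternatives were chosen with earlier results of these data known. Named genes were the 10, at most 4 called genes per list and comparison with the largest change, and the 3 genes most like each of the 10, which are not reported here for Flt4. The procedure was tested on simulated data.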

Additional observations from a re-analysis of the deposited data

Results flagged for a closer look

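The response to Dox differed between stages for 4 genes by a test of the difference itself, and these results are given as values. Comparisons with myeloid progenitors also differ in time with Dox and medium. For Flt1 the response in HE2 exceeded that in HE by 1.50 and that in myeloid progenitors exceeded that in HE by 1.82 on the log2 scale. For Vegfa the response in progenitors exceeded that in HE2 by 1.55, and the response in myeloid progenitors differed from that in progenitors by -1.39. For Nrp2 the response in myeloid progenitors exceeded that in progenitors by 1.50 and that in HE by 1.63. For Kdr the response in myeloid progenitors exceeded that in HE by 2.00 on the used probe and by 0.11, not called, on the second. The second probes of Nrp2 and Vegfa called none of their differences. Flt1 between HE and HE2 and Vegfa between HE2 and progenitors were not called at an adjusted P of 0.05 by limma. Nor was Nrp2 between progenitors and myeloid progenitors. Calls that depended on single arrays are given above.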

How the results depend on the processing

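No called change reversed under any alternative. Under the settings added after seeing the data, 13 of 25 values of called results kept their call and 12 lost it. Of 488 such values under the other processing settings, fits without 1 array not counted, 437 kept their call and 51 lost it. Some of these settings lay close to the main one, such as offset 50 and no background correction, which kept 34 of 34 calls each. Calls were gained as well, 7 at an adjusted P of 0.05 (Kdr with Dox in HE2 and in progenitors, Angpt2 with Dox in myeloid progenitors and 4 between stages), 5 with 75th percentile scaling (all between stages) 4 in fits on only the groups compared, 2 with the third uninduced progenitor array, and 1 each under the replicate block (Flt1 from HE2 to progenitors with Dox), under the scan day block (Kdr with Dox in HE2), with the mean of all probes and with the other probe (Vegfa with Dox in HE, both). Scaling to the 75th percentile left 0 of the 10 genes called with Dox in HE, 2 in HE2 and 0 in progenitors, and 0 in the differences of response between HE and HE2, HE2 and progenitors, and progenitors and myeloid progenitors. The mean of all probes gave 2 with Dox in HE, 0 from HE to HE2 with Dox and 1 between progenitors and myeloid progenitors. The other probe of Kdr, Nrp2 and Vegfa gave 2 with Dox in HE, 1 in progenitors, 1 from progenitors to myeloid progenitors without Dox, 0 from HE to HE2 with Dox, and 0, 0 and 1 for the response between HE2 and progenitors, progenitors and myeloid progenitors, and HE and myeloid progenitors. An adjusted P of 0.05 gave 0, 0 and 1 for the response between HE and HE2, HE2 and progenitors, and progenitors and myeloid progenitors. Fitting only the groups compared gave 0 with Dox in HE, 2 in HE2, 1 in progenitors, 2 from HE2 to progenitors without Dox, and 0, 0 and 1 for the same 3 differences. The replicate block over all arrays gave 0 with Dox in HE and 1 between progenitors and myeloid progenitors, and kept 32 of 34 calls. Only uninduced HE and HE2 arrays deviated together for all 3 replicate numbers. The slide block and the scan day block gave 1 with Dox in progenitors, 1 and 0 from progenitors to myeloid progenitors without and with Dox, and 1 for the response between them, and the scan day block 0 with Dox in HE. Including the third uninduced progenitor array gave 0 with Dox in HE. Leaving out the 4 arrays lowest on the axis gave 0 with Dox in HE, 0 in HE2, 0 from HE to HE2 with Dox and 0 for the response between HE and HE2. Leaving out 1 array gave 0 to 1 with Dox in HE, 2 to 3 in HE2, 0 to 2 in progenitors and 3 to 4 in myeloid progenitors. It gave 1 to 4 and 0 to 1 from HE to HE2, 2 to 5 and 3 to 4 from HE2 to progenitors, and 1 to 2 and 0 to 1 from progenitors to myeloid progenitors, without and with Dox. For the differences of response in the order of the report it gave 0 to 1, 0 to 1, 0 to 2 and 3. Where this left 1 array in a group, that array was assumed to vary like the other groups.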
